A study of Mus musculus with 2 samples.

Results

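Genomic imprinting leaves a gene active mainly on the copy inherited from the mother or mainly on the copy inherited from the father, and many imprinted genes control growth before and after birth. Described here are 10 such growth-control genes: H19, Igf2, Meg3, Dlk1, Peg3, Plagl1, Mest, Grb10, Ndn and Cdkn1c. They were read in vascular cells of the mouse lung on 2 one-colour Affymetrix arrays, 1 for old and 1 for young C57BL/6J mice. Mice of both ages had lost the left lobe to surgery (pneumonectomy), and the vascular cells were flow-sorted from the right lobes that remained. Ages in numbers, the time after surgery, the sort markers and how many mice each array holds are not given in the labels. Lungs without surgery were not analysed here. The members are all probe sets that the platform annotation gives to exactly 1 gene on the list. This found 36 probe sets of 9 genes, among 34945 probe sets of 18193 genes in all, and H19 had no probe set annotated to it alone.

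No value has a replicate, so there is no test and no error over mice, and differences are described by size, with 2-fold as the threshold. Values are MAS5 signals, a summary of the brightness of the probes of 1 set, scaled so that the middle log2 ratio between the arrays was 0. Every log2 ratio is old minus young. Signals under a floor of 73.7 were taken to have no order, and a fold against such a signal uses the floor in its place and is written "at least". In counts, a gene whose bound stays under 2-fold is placed within 2-fold, although its difference could be larger. A gene is represented by its brightest probe set, by mean log2 signal over both arrays. Signals are not compared between genes, because probe sets differ in how well they bind. Ratios of different probe sets of the same gene had an SD of 0.42 log2 units over 4514 genes, which describes probes and not mice. The arrays read both parental copies together, so nothing here shows which copy was active.

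The list holds both sides of a growth balance. Known as paternally expressed are Igf2, the insulin-like growth factor that drives fetal growth, the zinc finger proteins Plagl1 and Peg3, Dlk1, a membrane protein related to Notch ligands, Mest, a protein of the hydrolase fold family, and Ndn, which encodes the growth suppressor necdin. Known as maternally expressed are Cdkn1c, which encodes the cyclin-dependent kinase inhibitor p57, Grb10, an adaptor that restrains insulin and insulin-like growth factor receptors, and the long non-coding RNAs Meg3 and H19. Several of them are highly expressed in the fetus and decline as organs reach adult size.

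The promoters of 5 members are shown because 4 of the genes (Meg3, Dlk1, Igf2 and Mest) differed by over 4-fold and Peg3 shares a motif with Meg3. Each is the 250 bases before a transcription start in RefSeq (build GRCm38.p6), written 5′ to 3′ on the gene's strand. Capitals mark matches on either strand to the cyclic AMP response element (TGACGTCA), the TATA box and the GC box (GGGCGG), a choice made after the windows were seen. The windows are Meg3 at chr12:109540746-109540995 (plus strand, 1 of 2 starts), Dlk1 at chr12:109452573-109452822 (plus strand), Igf2 at chr7:142657497-142657746 (minus strand, 1 of 4 starts), Peg3 at chr7:6730420-6730669 (minus strand) and Mest at chr6:30737800-30738049 (plus strand, 1 of 3 starts).
Meg3: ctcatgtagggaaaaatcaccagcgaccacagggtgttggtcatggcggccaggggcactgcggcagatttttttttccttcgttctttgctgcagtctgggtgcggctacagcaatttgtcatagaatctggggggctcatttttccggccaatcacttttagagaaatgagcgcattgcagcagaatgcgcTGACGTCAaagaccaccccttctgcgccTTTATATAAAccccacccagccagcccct
Dlk1: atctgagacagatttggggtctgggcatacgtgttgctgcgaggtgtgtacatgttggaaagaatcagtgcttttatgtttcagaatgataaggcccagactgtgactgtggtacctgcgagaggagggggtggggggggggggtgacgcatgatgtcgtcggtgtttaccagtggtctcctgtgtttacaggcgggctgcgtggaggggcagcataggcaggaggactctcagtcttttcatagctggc
Igf2: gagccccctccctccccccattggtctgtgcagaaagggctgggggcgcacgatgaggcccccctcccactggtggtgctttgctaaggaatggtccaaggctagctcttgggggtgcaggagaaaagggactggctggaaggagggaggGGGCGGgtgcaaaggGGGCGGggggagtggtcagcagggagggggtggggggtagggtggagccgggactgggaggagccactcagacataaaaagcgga
Peg3: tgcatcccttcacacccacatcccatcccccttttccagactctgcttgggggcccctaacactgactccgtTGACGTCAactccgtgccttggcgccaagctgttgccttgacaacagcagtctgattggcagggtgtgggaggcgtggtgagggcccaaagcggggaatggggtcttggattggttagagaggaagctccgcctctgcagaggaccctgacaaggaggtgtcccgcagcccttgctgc
Mest: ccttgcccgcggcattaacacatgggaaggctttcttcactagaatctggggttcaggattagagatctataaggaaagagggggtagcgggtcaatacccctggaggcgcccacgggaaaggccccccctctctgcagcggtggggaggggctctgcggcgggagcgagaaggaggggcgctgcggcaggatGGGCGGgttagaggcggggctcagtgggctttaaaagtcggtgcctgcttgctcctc

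The cyclic AMP response element stands in the Meg3 and Peg3 windows, in no other of the 15 windows of members, and in 1.55% of all 32817 windows of this length. Peg3 is shown because of this match, so the windows shown cannot be set against that share. The TATA box, searched as TATAAA, matches the Meg3 window on both strands with an overlap of the matches, and stands in 12.4% of all windows. The GC box stands in 32.7% of all windows, with 2 matches for Igf2 and 1 for Mest, and the Dlk1 window holds none of these motifs. CpG pairs, the sites of DNA methylation, numbered 10 for Meg3, 8 for Dlk1, 6 for Igf2, 8 for Peg3 and 14 for Mest, beside a median of 6 over all windows. These counts are of the windows shown. At the other starts there were 0 for Meg3, 1, 10 and 22 for Igf2, and 7 and 14 for Mest. The other Meg3 window held none of the motifs. These matches describe letters and not binding. Windows were found for 8 of the 10 genes, and for Cdkn1c and H19 none is shown.

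The makeup of the sorted cells stands beside every result. All 12 pan-endothelial markers were above the floor on both arrays, with a summed signal of 149378 for old and 87921 for young mice. Fibroblast markers summed to 20663 for old and 278 for young mice, and 9 of 10 reached the floor for old against 0 for young. Most of the old sum came from the collagen genes Col3a1 (8671), Col1a2 (8079) and Col1a1 (2732.5). Pdgfra was below the floor at both ages, at 32.5 for old and 48.0 for young mice. Pericyte and smooth muscle markers summed to 25572 for old and 527 for young mice, with 11 of 12 at the floor for old against 2 for young. Mesothelial markers summed to 18773 for old and 2057 for young mice (9 against 2 of 9 at the floor). Most of that young sum came from Gpm6a (1863), which was within 2-fold. Other cell types were on the same side. Pan-leukocyte markers summed to 23864 for old and 7327 for young mice (10 against 4 of 10 at the floor, median log2 ratio 3.16). Most of the young sum came from Arhgdib (5496) and Lcp1 (1391), both within 2-fold. Macrophage markers summed to 19742 for old and 561 for young mice (10 against 2 of 10 at the floor). Hepatocyte markers summed to 16779.5 for old and 464 for young mice (11 against 1 of 11). All 11 were past 2-fold toward old mice, and Alb had 8900 for old and 20.5 for young. Sinusoidal endothelial markers summed to 221332 for old and 29576 for young mice (12 against 6 of 12, median log2 ratio 5.34). Most of that young sum came from Lyve1 (16120) and Stab1 (9881), both within 2-fold. The other 10 were past 2-fold toward old mice. Mrc1 had 27542 for old and 42.0 for young mice, and Bmp2 18710 for old and 5.68 for young. Lymphatic endothelial markers were on the other side, with 37164 for old and 65169 for young mice (6 against 8 of 8 at the floor). Most of that old sum came from Flt4 (18035) and Lyve1 (14902), both within 2-fold, and the median log2 ratio of the list was -3.56. Of the list, 5 were past 2-fold toward young mice and 1 toward old. Prox1 had 60.6 for old and 6885 for young mice, and Nts 27.2 for old and 10414 for young. Lung epithelial markers summed to 1466 for old and 582 for young mice, with Sftpc, Sftpa1, Scgb1a1 and Nkx2-1 below the floor in both. Neuroendocrine markers summed to 855 for old and 285 for young mice, with only Uchl1 above the floor. Adipocyte markers summed to 18376 for old and 22105 for young mice, most of it from Fabp4, which endothelium also expresses. The part of these cell types in the results was not tested, and fewer cells of a type and less RNA per cell cannot be told apart.

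Of the 9 measured members, 6 were past 2-fold toward old mice (Meg3, Cdkn1c, Igf2, Dlk1, Peg3 and Plagl1), 1 toward young mice (Mest) and 2 lay within 2-fold (Grb10 and Ndn). Among all 12105 genes above the floor for at least 1 age, 16.0% were past 2-fold toward old and 11.3% toward young mice. Meg3 and Dlk1 passed the floor for old mice only, so they could differ in 1 direction alone. Of the 7 members above the floor at both ages, 4 were past 2-fold toward old mice, against 11.7% of 10004 genes, and 1 toward young mice, against 10.6%. The median log2 ratio of these 7 was 1.38, beside -0.02 over the 10004 genes. The members were chosen with earlier results of these data known, and the difference from all genes was not tested. Both parental classes contributed: 4 of 6 paternally expressed members were higher in old mice and 1 in young, and 2 of 3 measured maternally expressed members were higher in old mice and 0 in young. The growth factor gene Igf2 and the growth inhibitor gene Cdkn1c lay on the same side.

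**Figure D1:**
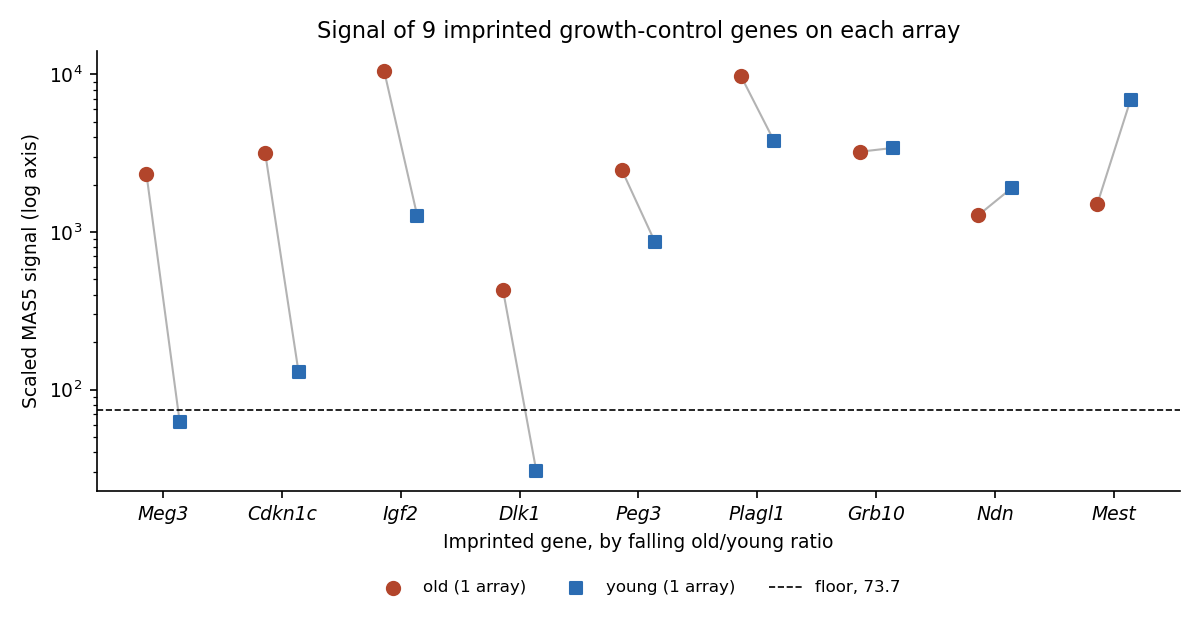
Scaled MAS5 signal (log axis) of the brightest probe set of each of 9 imprinted genes, with old as circles and young as squares, 1 array each, and the floor of 73.7 as a dashed line. Meg3, Cdkn1c, Igf2, Dlk1, Peg3 and Plagl1 have the old circle above the young square, Mest has it below, and Grb10 and Ndn have both symbols close together.

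**Figure D2:**
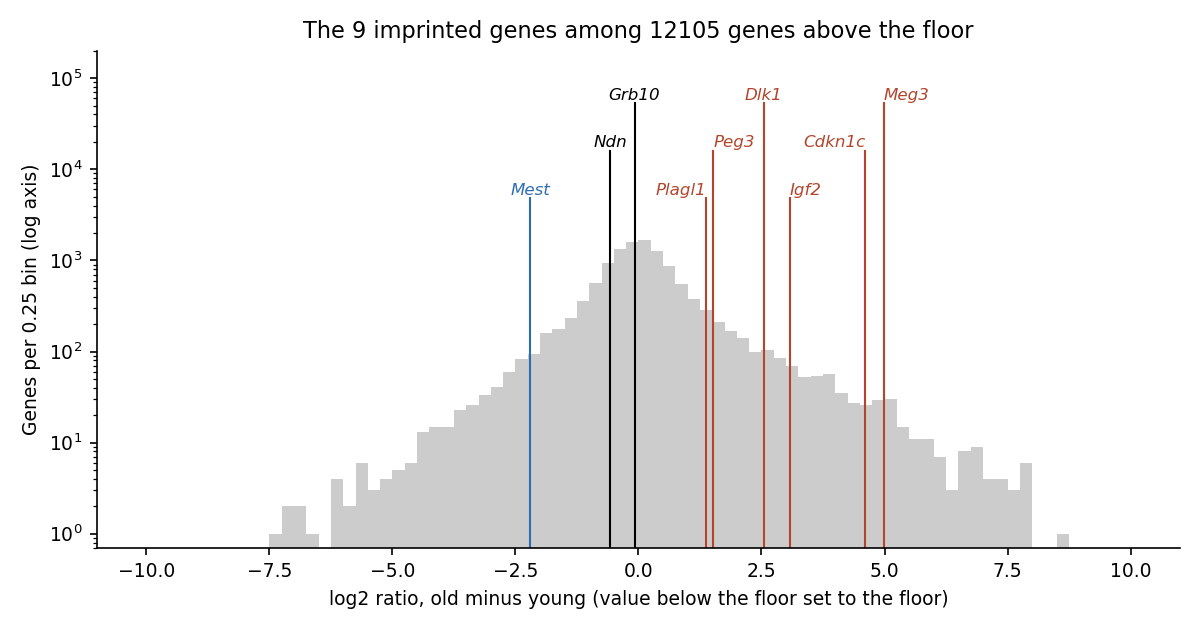
Histogram (log axis) of the log2 ratio, old minus young, of 12105 genes above the floor for at least 1 age, with vertical lines for the 9 imprinted genes, red for higher in old mice, blue for higher in young and black for within 2-fold. Meg3 at 4.99 and Cdkn1c at 4.60 lie in the upper tail and Mest at -2.20 in the lower.

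Igf2 was 8.41-fold higher in old mice. Its signal was 10546 for old and 1254 for young mice, both far above the floor (log2 ratio 3.07). Among measured genes 3.65% had a ratio as large. The value rests on 1 of its 2 probe sets, since the other was below the floor at both ages, at 43.6 for old and 23.6 for young mice. The annotation used here does not tie the probe set to any of the 4 starts of the gene.

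Grb10, which acts on the receptors that Igf2 binds, had nearly equal signals of 3228 for old and 3414 for young mice (log2 ratio -0.08). A second probe set had 94.8 for old and 87.0 for young mice (0.12). The remaining one had 64.7 for old mice, under the floor, and 97.2 for young, which makes its log2 ratio of -0.40 a bound. The 2 sets above the floor at both ages lay within 2-fold, and the bound was under 2-fold.

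The other genes of the insulin-like growth factor and insulin axis were mostly higher in old mice. Of 22 listed, 21 were on the array and 19 above the floor, of which 11 were past 2-fold toward old and 2 toward young mice (median log2 ratio 1.19, beside 0.03 over all genes, of which 16.0% were past 2-fold toward old and 11.3% toward young mice). As many as 8 of the 19 passed the floor for old mice only, and with the floor at the 75th percentile the counts were 3 toward old and 1 toward young mice. The binding protein gene Igfbp2 had 2108 for old and 11.6 for young mice, at least 28.6-fold, and Igfbp3, of the main carrier in blood, had 665 for old and 116 for young. Igf1, the growth factor of postnatal life, had 551 for old and 6903 for young mice, 12.5-fold higher in young. Stc2, an inhibitor of the protease that frees these factors, had 83.8 for old and 609 for young mice. Igf1 and Igf2, ligands of the same receptor, thus lay on opposite sides. Igf2r, the imprinted receptor that clears Igf2 protein, had 1276 for old and 741 for young mice, within 2-fold.

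Cdkn1c, the cell cycle brake on the list, was 24.3-fold higher in old mice. Its only probe set had 3151 for old mice and 129 for young, where it was 1.76 times the floor (log2 ratio 4.60). A ratio as large was found for 1.30% of measured genes.

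The other cyclin-dependent kinase inhibitor genes were divided. All 7 were on the array and above the floor, with 1 past 2-fold toward old mice, 2 toward young and 4 within, few genes to set beside 16.0% and 11.3% of all genes. Their median log2 ratio of 0.06 had no settled sign, since it ran from -0.20 to 0.30 over the alternatives and was below 0 in 5 of 9. Cdkn2b, which encodes p15, had 1410 for old and 623 for young mice. Cdkn2a, the locus of p16 and p19Arf that is used as a marker of senescence, had 1059 for old and 6096 for young mice, 5.76-fold higher in young. Cdkn3, a phosphatase gene active in dividing cells, had 58.0 for old and 382 for young mice, and Cdkn2d lay within 2-fold, at 1310 for old and 856 for young. Proliferation genes stood beside these: of 19 on the array, 0 were past 2-fold toward old mice and 14 toward young, with a median of -2.28, and with the floor at the 75th percentile 8 were toward young.

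Both zinc finger genes of the list were higher in old mice, by less than 3-fold. Plagl1, a regulator of other imprinted genes, had 9836 for old and 3791 for young mice, 2.59-fold (log2 ratio 1.38). A second, dim probe set had 215 for old and 90.6 for young mice, with a like ratio of 1.25. The last was below the floor at both ages, at 72.1 for old and 71.6 for young mice.

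Peg3 had 2474 for old and 860 for young mice, 2.88-fold (log2 ratio 1.52). A second probe set had 1237 for old and 513 for young mice (1.27), and another 237 for old and 42.4 for young, at least 3.22-fold. These 3 were past 2-fold in the same direction, and the other 2 were at or under 1.25 for old and 0.699 for young mice. Ratios of this size were common here, since 10.3% of measured genes had one as large as Peg3 and 11.5% one as large as Plagl1.

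Meg3 and Dlk1 lie in the same imprinted region of chromosome 12, where Dlk1 is active on the paternal copy and the non-coding RNAs on the maternal. Both were above the floor for old mice only. Meg3 had 2343 for old and 62.6 for young mice, at least 31.8-fold (log2 ratio at least 4.99, a bound set by the floor). Of its 11 probe sets, 9 were above the floor for old mice, from 91.5 to 2578, 0 were for young mice, where the highest was 62.6, and 2 were below it at both ages.

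The 9 Meg3 probe sets fell into bright and dim ones. For 5 the bound was past 2-fold, up to at least 35.0-fold for a set with 2578 for old and 27.0 for young mice. Another of the 5 had 1746 for old and 3.23 for young mice. The other 4 had 91.5, 97.3, 113 and 119 for old mice, so close to the floor that their bounds, 1.24 to 1.62-fold, are small by construction. Meg3 is spliced into many forms, and which forms each set reads was not tested.

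Dlk1 had 429 for old and 30.6 for young mice, at least 5.82-fold (log2 ratio at least 2.54). That probe set is of a kind that can match several transcripts, as are the sets that represent Meg3 and Plagl1. Without such sets the log2 ratio was at least 5.13 for Meg3 and was 1.25 for Plagl1. The other Dlk1 set had 13.6 for old and 3.40 for young mice, below the floor at both ages, so the Dlk1 difference rests on 1 set.

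**Figure D3:**
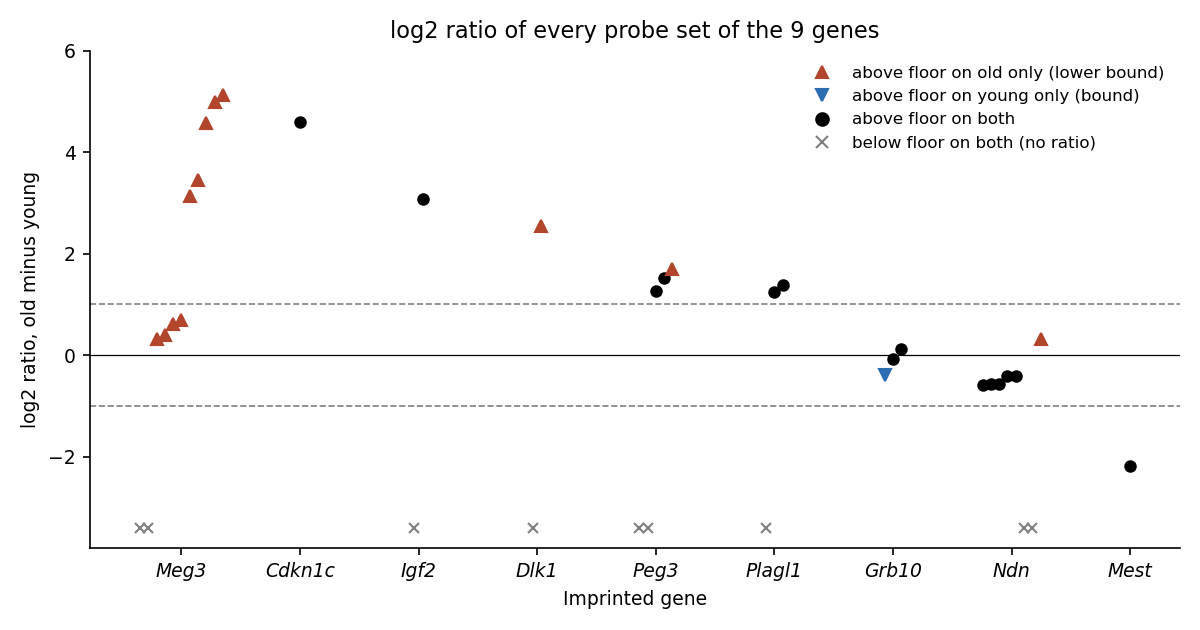
The log2 ratio, old minus young, of each of the 36 probe sets of 9 imprinted genes, with circles for sets above the floor at both ages, triangles for bounds, crosses at the bottom for sets below it at both ages, which have no ratio, and dashed lines at 2-fold. The 9 Meg3 triangles run from 0.31 to 5.13, whereas the 5 Ndn circles lie between -0.59 and -0.41.

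The neighbours of Meg3 lay on the same side. Rian, a maternally expressed non-coding RNA, had 961 for old and 14.3 for young mice, at least 13.04-fold. A second Rian probe set was at least 6.26-fold higher in old mice, and its other 2 were below the floor at both ages. Mirg, a host transcript of microRNAs, had 103 for old and 6.04 for young mice, at least 1.39-fold. Of the 7 listed genes of the region, Begain, Rtl1 and Dio3 had no probe set annotated to them alone. The 4 measured genes of the region, Dlk1, Meg3, Rian and Mirg, were all above the floor for old mice and below it for young. Such genes can differ in 1 direction alone. Of all 12105 genes above the floor for at least 1 age, 10004 were above it at both, and the rest for old only or for young only. The bound of Mirg was under 2-fold, and its 2 probe sets, at 103 and 78.0 for old mice, were near the floor.

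Because Dlk1 is related to Notch ligands, Notch receptors, ligands and targets were read beside it. Of 16, 14 were above the floor, with 4 past 2-fold toward old mice, 3 toward young and 7 within, beside 16.0% and 11.3% of all genes. Their median log2 ratio was 0.14, but -0.71 over the 11 above the floor at both ages and -0.31 without probe sets that can match several transcripts. The receptor Notch4 had 3903 for old and 89.2 for young mice, 43.7-fold, and the ligand Dll4 had 1596 for old and 115 for young. The target gene Hes1 had 4000 for old and 987 for young mice, whereas the receptor Notch2 had 383 for old and 1100 for young.

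Mest was the 1 member past 2-fold toward young mice. It had 1503 for old and 6888 for young mice, 4.58-fold higher in young (log2 ratio -2.20), and 3.03% of measured genes had a ratio as low. It has 1 probe set, which was at least 20.4 times the floor at both ages. Its imprinted neighbour Copg2, of a vesicle coat protein, had 571 for old and 866 for young mice, within 2-fold.

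Ndn lay within 2-fold, toward young mice. Its brightest probe set had 1279 for old and 1900 for young mice (log2 ratio -0.57). All 5 sets above the floor at both ages had the same sign, from -0.59 to -0.41, with an SD of 0.092. A dim set had 92.1 for old and 14.4 for young mice, a bound of 1.25-fold in the opposite direction, and 2 were below the floor at both ages. Of its neighbours on chromosome 7, Ube3a had a log2 ratio of -0.47 and Mkrn3 a bound of -0.80.

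Imprinted genes outside the list were counted by the same rule. Of 56, 50 were on the array and 38 above the floor, with 12 past 2-fold toward old mice, 4 toward young and 22 within (median 0.21, beside 0.03 over all genes, of which 16.0% were toward old and 11.3% toward young). The difference from the 9 members was not tested. With the floor at the 25th percentile 19 were toward old mice, and with the floor at the 75th percentile 5 were toward old and 0 toward young. Of the 38, 11 passed the floor for old mice only and 3 for young only. Dcn, which encodes the matrix proteoglycan decorin, had 2646 for old and 103 for young mice, 25.8-fold. Fibroblast, pericyte, mesothelial, leukocyte, macrophage, hepatocyte and sinusoidal markers lay on the same side, and the source of the Dcn difference was not tested. Tspan32, a tetraspanin gene of blood cells, had 48.5 for old and 842 for young mice, at least 11.4-fold higher in young. Some of these genes, Dcn among them, are known to be imprinted in the placenta and not in most tissues.

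Neighbourhoods were formed of imprinted genes linked within 2 Mb, after their values had been seen. In the region of chromosome 6 from Calcr to Asb4, 5 of 7 measured genes were past 2-fold toward old mice and 0 toward young. Among all genes 16.0% were toward old and 11.3% toward young mice, and the region was singled out because of these values. Of the 5, Pon3 and Asb4 passed the floor for old mice only, so they could differ in 1 direction alone. Tfpi2, a protease inhibitor gene, had 1712 for old and 152 for young mice. Sgce, of a sarcoglycan, was 7.03-fold, Ppp1r9a, of neurabin, 9.20-fold, the paraoxonase gene Pon3 at least 7.37-fold and Asb4 at least 7.35-fold higher in old mice. Mest lies in a separate region of that chromosome.

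In the region of chromosome 7 that holds Igf2 and Cdkn1c, 10 other imprinted genes were measured, of which 2 were past 2-fold toward old mice, 2 toward young and 6 within, beside 16.0% and 11.3% of all genes. The potassium channel gene Kcnq1 was 8.99-fold and Cd81 2.08-fold higher in old mice. Slc22a18, the next imprinted gene on the list after Cdkn1c, had 84.3 for old and 338 for young mice, 4.01-fold higher in young. Ddc, next to Grb10 on chromosome 11, was at least 10.5-fold higher in old mice, beside the nearly equal signals of Grb10.

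**Figure D4:**
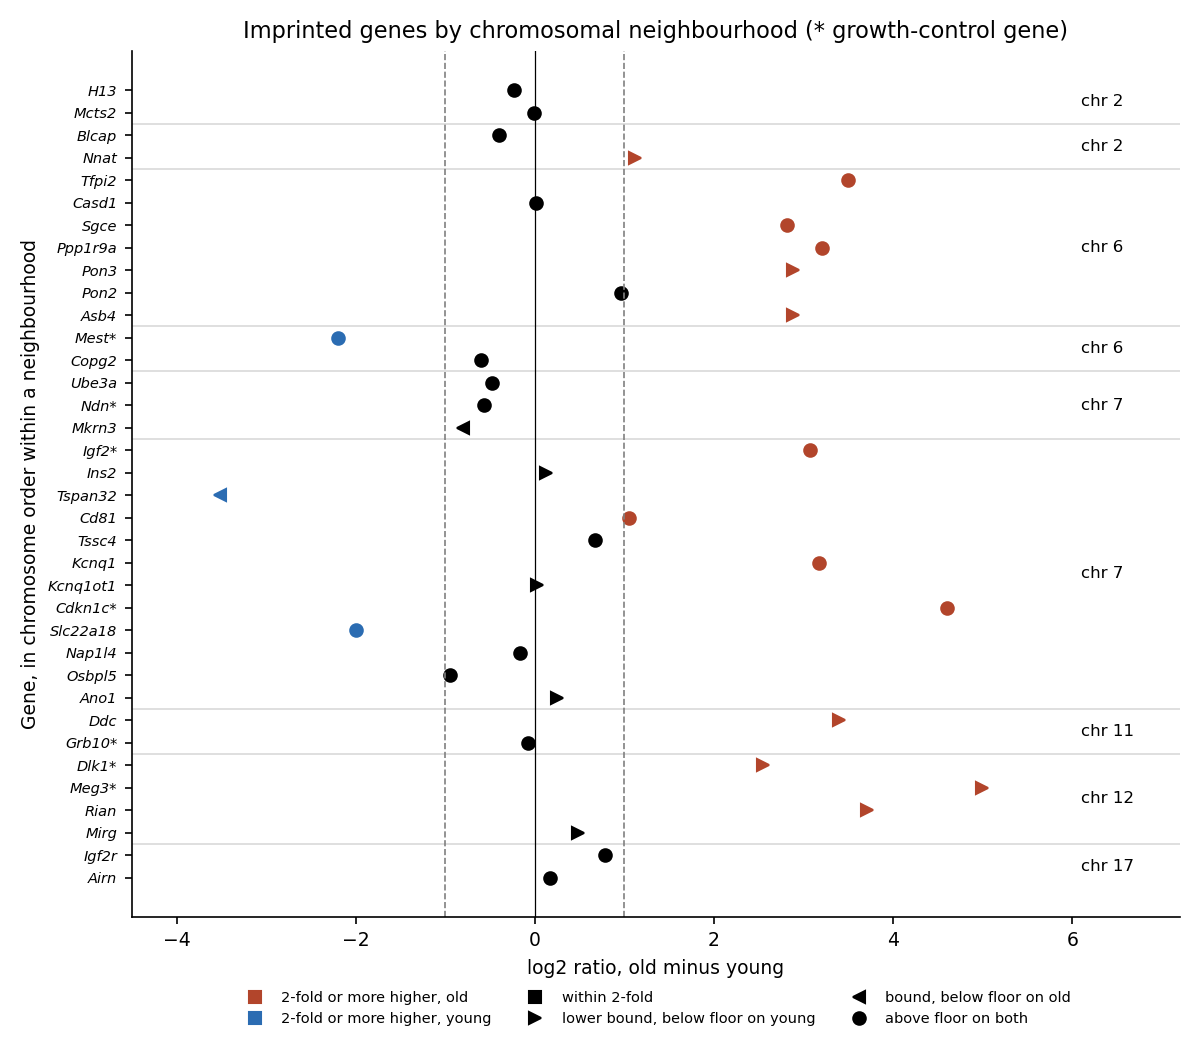
The log2 ratio, old minus young, of imprinted genes above the floor, in chromosome order within each neighbourhood of 2 or more measured genes, with asterisks on the growth-control genes. Circles are measured at both ages and triangles are bounds, red and blue mark 2-fold or more toward old and young mice, and the 4 genes of chromosome 12 and 5 red genes of chromosome 6 lie on the old side.

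Genes that keep imprints and DNA methylation in place were counted last. Of 22, 21 were on the array and 17 above the floor, with 0 past 2-fold toward old mice, 3 toward young and 14 within (median -0.19). Among all genes 16.0% were toward old and 11.3% toward young mice, and with the floor at the 75th percentile 1 of the list was toward young. Uhrf1, which brings the maintenance methyltransferase to newly copied DNA, had 173 for old and 825 for young mice, and the histone methyltransferase gene Ezh2 had 334 for old and 1135 for young. Both are also known as genes of cycling cells. Zfp57, a zinc finger protein that protects imprints, had 127 for old and 294 for young mice, and the chromatin gene Arid4a lay within 2-fold, at 1208 for old and 801 for young.

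Across 10 processing settings each of the 9 members kept its side of 2-fold wherever it had a value. Dlk1 had none with a higher floor or without probe sets that can match several transcripts. With the higher floor the log2 ratio was 2.26 for Meg3 and 2.69 for Cdkn1c, and as a mean over probe sets that of Meg3 was 2.59.

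**Figure D5:**
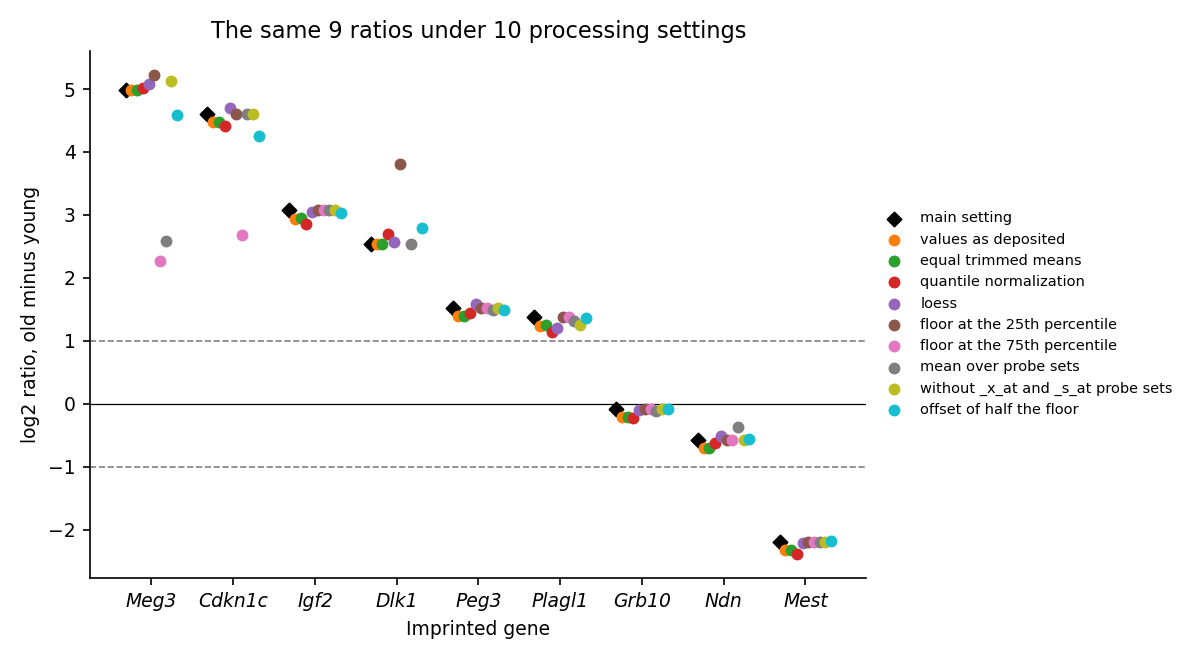
The log2 ratio, old minus young, of 9 imprinted genes under the main setting (diamonds) and 9 alternatives (circles), with dashed lines at 2-fold. Points of Igf2, Peg3, Plagl1, Grb10, Ndn and Mest lie close together, and those of Meg3, Cdkn1c and Dlk1 are more spread.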

How the data were processed

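The deposited intensity values are MAS5 signals per probe set on a linear scale, and GCOS 1.4 and MAS5 are named per the submitters' processing notes. Of 45101 probe sets, 64 controls were left out. The platform annotation of 2016 gave 1 gene symbol to 34945, several to 932 and none to 9160. Entrez identifiers matched 34741 of the first kind to RefSeq, and 0 symbols changed.

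Arrays were scaled by factors of 1.05 for old and 0.956 for young, which set to 0 a middle log2 ratio of -0.13 among probe sets past both arrays' medians. Those medians, taken before scaling, stood in for the floor, which exists only after scaling and is the higher median then, 73.7. This reading of the scaling was settled after the values had been seen. For each gene the set with the largest mean log2 signal was used. The number of arrays, 1 for each age, limits the precision, and no test was made.

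Named are all members and up to 4 genes per list with the largest absolute ratios. A planned naming of the genes nearest in signal to a member was left out, because it sets the brightness of different probe sets against each other. Imprinted neighbours, Igf2r, Fabp4, Uchl1, Flt4, Lyve1, Stab1, Arhgdib, Lcp1, Gpm6a and genes below the floor were named after their values were seen. Members and lists were chosen with earlier results of these data known. Promoters came from RefSeq (GRCm38.p6). The calculation was tested on simulated data.

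Alternatives were no scaling, trimmed means made equal, quantile normalization, loess (span 0.4), floors at the 25th and 75th percentile (the lower and higher floor), averaging a gene's probe sets, dropping sets with suffix _x_at or _s_at, and adding 0.5 of the floor before log2. Tools were Python 3.11.15, numpy 2.4.6, pandas 2.3.3, statsmodels 0.14.6 and matplotlib 3.10.9.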

Additional observations from a re-analysis of the deposited data

How the results depend on the processing

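Under the 9 alternatives the log2 ratios of 6 members moved by less than 0.42, the SD between probe sets: Igf2 (2.86 to 3.07), Peg3 (1.39 to 1.59), Plagl1 (1.14 to 1.38), Grb10 (-0.22 to -0.08), Ndn (-0.70 to -0.37) and Mest (-2.38 to -2.17). Meg3 ran from 2.26 to 5.23, Cdkn1c from 2.69 to 4.70 and Dlk1 from 2.54 to 3.81. Dlk1 could not be given a value with the higher floor or without suffixes _x_at and _s_at. A bound moves with the floor by construction, and with the higher floor Cdkn1c became one too. Of the other imprinted genes, 19 were past 2-fold toward old mice with the lower floor, and with the higher floor 5 were toward old and 0 toward young. The adipocyte median, -1.83 over 2 genes, was 0.02792 with the lower floor, which other genes then pass. Over all pairs of a list's count or median and an alternative, 438 stayed within 1.5 times for a count or 0.42 for a median, and the remaining ones moved further. Of 18 list medians, 3 changed sign under some alternative: that of adipocyte markers, that of the cyclin-dependent kinase inhibitors (-0.20 to 0.30) and that of the Notch genes (-0.31 to 0.33). Without scaling the median log2 ratio of genes above the floor at both ages was -0.14, and 52.1% of genes past 2-fold were toward old mice, against 58.6% with scaling. No paired analysis was possible because each group has 1 array, and leaving an array out leaves no comparison.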

Other observations

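A probe set annotated to both H19 and Mir675, the microRNA gene that lies within H19, was assigned to neither. Its signal was 1738 for old and 2559 for young mice, 1.47-fold higher in young (log2 ratio -0.56). Igf2, the neighbour of H19, lay on the old side. Which RNA the probe set reads was not tested.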
